A study of Mus musculus with 12 samples.

Results

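Oxidative phosphorylation is carried out by 5 protein complexes of the inner mitochondrial membrane. The genes described here were chosen by symbol alone: those that start with Nduf and a, b, c, s or v, the 4 Sdh subunit genes, those that start with Uqcr, with Cox and a digit from 4 to 8, or with Atp5. This gave 92 of the 23420 genes listed. They were 36 genes of complex I, 4 of complex II, 8 of complex III, 20 of complex IV, 15 of complex V and 9 that are named after complex I or V but are assembly factors or related proteins rather than subunits. Ndufa4 is placed with complex IV, of which its protein is a subunit, and its paralogue Ndufa4l2 is placed beside it.

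Complex I (NADH dehydrogenase) and complex II (succinate dehydrogenase) pass electrons to ubiquinone, complex III passes them on to cytochrome c, and complex IV (cytochrome c oxidase) hands them to oxygen. Complexes I, III and IV pump protons, and complex V (ATP synthase) uses the gradient to make ATP. The mitochondrial genome encodes core subunits of complexes I, III, IV and V, and the nuclear genome encodes the rest; only nuclear genes were analysed here. Pluripotent stem cells are known for strong glycolysis, and several complex IV subunits exist as isoforms that differ between tissues.

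The 12 RNA-seq libraries came from mouse embryonic fibroblasts (MEF), from Stage1 cells at day 6 of reprogramming, from Stage2 cells after 4 further days, and from established induced pluripotent stem cells (iPSC), with 3 libraries in each group. All carried the same strain label, Mixed (C57BL/6 x 129). Per the series text, all groups but the fibroblasts had been sorted by Oct4-GFP, a fluorescent reporter of the pluripotency gene Pou5f1. The sources used here do not give how the reprogramming factors were introduced, nor the age of the embryos. Nothing stated that replicates were separate cultures or animals, so the p-values rest on a spread between libraries that may be technical.

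In all 12 libraries the title and the stage among the characteristics named different groups, and groups were taken from the titles. The sort marker among the characteristics went with the stage, so the libraries titled Stage1 carried the marker of unsorted cells. The 7 fibroblast markers summed to between 27809 and 33976 CPM (read counts scaled to a common library size, as below) in the libraries titled MEF and to between 10.9 and 187 CPM in the other 9. The 6 pluripotency markers summed to between 4.52 and 5.62 CPM in MEF and to between 1611 and 3331 CPM elsewhere. The order of Stage1, Stage2 and iPSC rests on the titles. Under the names in the characteristics, the Stage2 against Stage1 values given here would be those of Stage1 against MEF, and the iPSC against Stage2 values those of Stage2 against Stage1.

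Gene counts ranged from 8916223 to 19011944 per library, and a count of 0 allowed up to 0.158 to 0.336 CPM in a library (3 counts of its total, counting error only). Reads outside genes made up 8.86% to 9.42% of reads in MEF, 38.1% to 45.2% at Stage1, 47.4% to 53.4% at Stage2 and 35% to 44.3% in iPSC. Structural RNA genes such as Rn45s held 4.62% to 12.9% of gene counts in MEF and 0.954% to 2.29% in the other groups. Levels below are CPM after TMM scaling. A gene was called higher or lower at a Benjamini-Hochberg adjusted p below 0.05 in edgeR's quasi-likelihood test over 14770 genes, with log2 fold changes ± standard error (SE).

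Of the 92 genes, 88 passed the filter on low counts and were tested. Cox6a2 and Cox8b, the heart and muscle isoforms, and Cox8c, the testis isoform, were too low, with at most 44, 5 and 3 counts per group. Ndufs5, a complex I subunit, had no count in any of the 12 libraries, and the line for non-unique alignments was at 0 in all 12 files. How reads with several alignments were treated is not stated, so values of members with near-identical copies elsewhere in the genome are uncertain. In the GENCODE vM21 annotation 30 of the 92 genes share exon bases with another gene, in 30 of 34 overlaps on the opposite strand, and the sources used here do not give the strand setting of the counting. Of the genes named below this holds for Atp5a1, Atp5d, Atp5j, Atp5l, Atp5o, Cox4i1, Cox6c, Ndufa2, Ndufa4l2, Ndufaf2, Ndufs1, Ndufs3 and Uqcrb among others.

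RefSeq promoter windows, from 250 bases before to 50 bases after the gene start (GRCm38.p6), were at hand for 73 of the 92 genes. A match to the Nrf1 motif stood in 19 of them (26%), against 5.19% of all 27025 genes with a window. This motif is named for a transcription factor known for respiratory genes. The pattern searched for it left a base near the middle open, so a match need not be a palindrome. The Ets motif CCGGAAG, bound by Gabpa among others, stood in 17 (23.3% against 9.93%), the Yy1 motif AANATGGCG in 10 (13.7% against 2.76%) and the estrogen-related receptor motif TCAAGGTCA in 2 (2.74% against 0.466%). Both strands were searched for each motif. The windows also differed in base composition, with a median of 19 CpG in the members' 78 windows and 7 in all 32851, and the part of this in the shares was not tested. A match is a description of the sequence, not a binding site.

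Sdha and Cox6a1 are shown because both windows hold Nrf1 matches while their transcripts moved in opposite directions between MEF and Stage1. Capitals mark matches, reading 5′ to 3′ on the strand of the gene. The Sdha window is chr13:74350191-74350490, minus strand, with 3 Nrf1 matches, and the Cox6a1 window is chr5:115348909-115349208, minus strand, with 2 Nrf1 matches and 1 Ets match.
Sdha: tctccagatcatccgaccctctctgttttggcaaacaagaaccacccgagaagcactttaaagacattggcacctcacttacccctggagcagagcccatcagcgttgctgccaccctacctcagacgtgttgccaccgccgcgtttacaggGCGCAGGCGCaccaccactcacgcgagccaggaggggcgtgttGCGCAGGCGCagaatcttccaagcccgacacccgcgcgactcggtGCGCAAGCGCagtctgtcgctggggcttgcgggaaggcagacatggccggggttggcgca
Cox6a1: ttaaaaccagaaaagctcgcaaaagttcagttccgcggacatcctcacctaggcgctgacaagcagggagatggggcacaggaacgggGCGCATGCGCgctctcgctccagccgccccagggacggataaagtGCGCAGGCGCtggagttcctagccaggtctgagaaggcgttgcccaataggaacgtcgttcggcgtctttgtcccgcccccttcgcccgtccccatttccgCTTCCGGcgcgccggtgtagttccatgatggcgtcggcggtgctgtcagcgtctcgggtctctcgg

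Among genes called higher at Stage1 than in MEF, 8 of 26 windows held an Nrf1 match, and among those called lower 6 of 28. For the Ets motif these were 5 of 26 and 9 of 28. The motifs were thus present on both sides of the comparison.

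The next pairs are shown because each holds a widespread isoform of a complex IV subunit and a relative known from testis. Cox6b1 was called lower and Cox6b2 higher at Stage1 and again at Stage2, with limits given below. Cox7b and Cox7b2 were both called higher at Stage1, and only Cox7b2 was called, higher, at Stage2. The windows are chr7:30626065-30626364 (Cox6b1), chr7:4753045-4753344 (Cox6b2), chrX:106015450-106015749 (Cox7b, plus strand) and chr5:71548156-71548455 (Cox7b2), the others on the minus strand. The Cox6b1 window held 1 Ets match, and none of the 4 motifs stood in the other 3. All 6 genes were chosen for printing after their values were seen.
Cox6b1: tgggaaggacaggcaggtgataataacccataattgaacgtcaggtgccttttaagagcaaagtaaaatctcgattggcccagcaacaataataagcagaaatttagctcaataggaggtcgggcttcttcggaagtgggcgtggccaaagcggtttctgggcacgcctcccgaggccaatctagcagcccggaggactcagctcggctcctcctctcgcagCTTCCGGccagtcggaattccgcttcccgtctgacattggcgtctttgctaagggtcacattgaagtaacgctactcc
Cox6b2: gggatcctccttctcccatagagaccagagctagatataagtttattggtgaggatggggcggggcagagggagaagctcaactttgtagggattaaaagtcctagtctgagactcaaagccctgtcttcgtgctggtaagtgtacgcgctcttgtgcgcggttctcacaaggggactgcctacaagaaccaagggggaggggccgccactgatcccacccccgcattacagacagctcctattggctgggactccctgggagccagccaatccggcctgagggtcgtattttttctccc
Cox7b: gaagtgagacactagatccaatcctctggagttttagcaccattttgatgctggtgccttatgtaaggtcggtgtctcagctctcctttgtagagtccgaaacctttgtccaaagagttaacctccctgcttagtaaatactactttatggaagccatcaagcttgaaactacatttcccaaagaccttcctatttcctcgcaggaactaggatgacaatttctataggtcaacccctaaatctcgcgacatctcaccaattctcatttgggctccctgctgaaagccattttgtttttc
Cox7b2: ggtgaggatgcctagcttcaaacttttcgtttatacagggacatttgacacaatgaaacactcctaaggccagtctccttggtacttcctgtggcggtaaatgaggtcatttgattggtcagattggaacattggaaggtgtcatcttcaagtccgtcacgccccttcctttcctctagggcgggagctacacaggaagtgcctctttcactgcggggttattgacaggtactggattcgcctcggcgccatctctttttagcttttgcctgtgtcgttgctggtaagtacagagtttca

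Stage1 against MEF asked how the respiratory genes of Oct4-GFP-positive cells at day 6 differ from those of fibroblasts. The genes did not move together. Of the 88 tested, 33 were higher at Stage1, 34 lower and 21 not called, where 80.4% of all genes tested were called, 44.2% higher and 36.1% lower. The shares among these genes were 37.5% and 38.6%, and their median log2 fold change was -0.06 beside 0.27 for all genes. Scaled by library totals instead of TMM, the counts were 38 higher and 31 lower, and the median was 0.13 beside 0.45.

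The complexes differed in balance. In complex I 13 of 35 tested genes were higher and 11 lower, in complex II 2 of 4 each way, and in complex III 3 of 8 higher and 2 lower. In complex IV 3 of 17 were higher and 11 lower, with a median of -0.63, and in complex V 6 of 15 were higher and 8 lower, with a median of -0.56. These 2 medians stayed below 0 with library totals, at -0.43 and -0.37. Of the 9 assembly genes 6 were higher and 0 lower (median 0.73). No test was run over the lists.

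**Figure D1:**
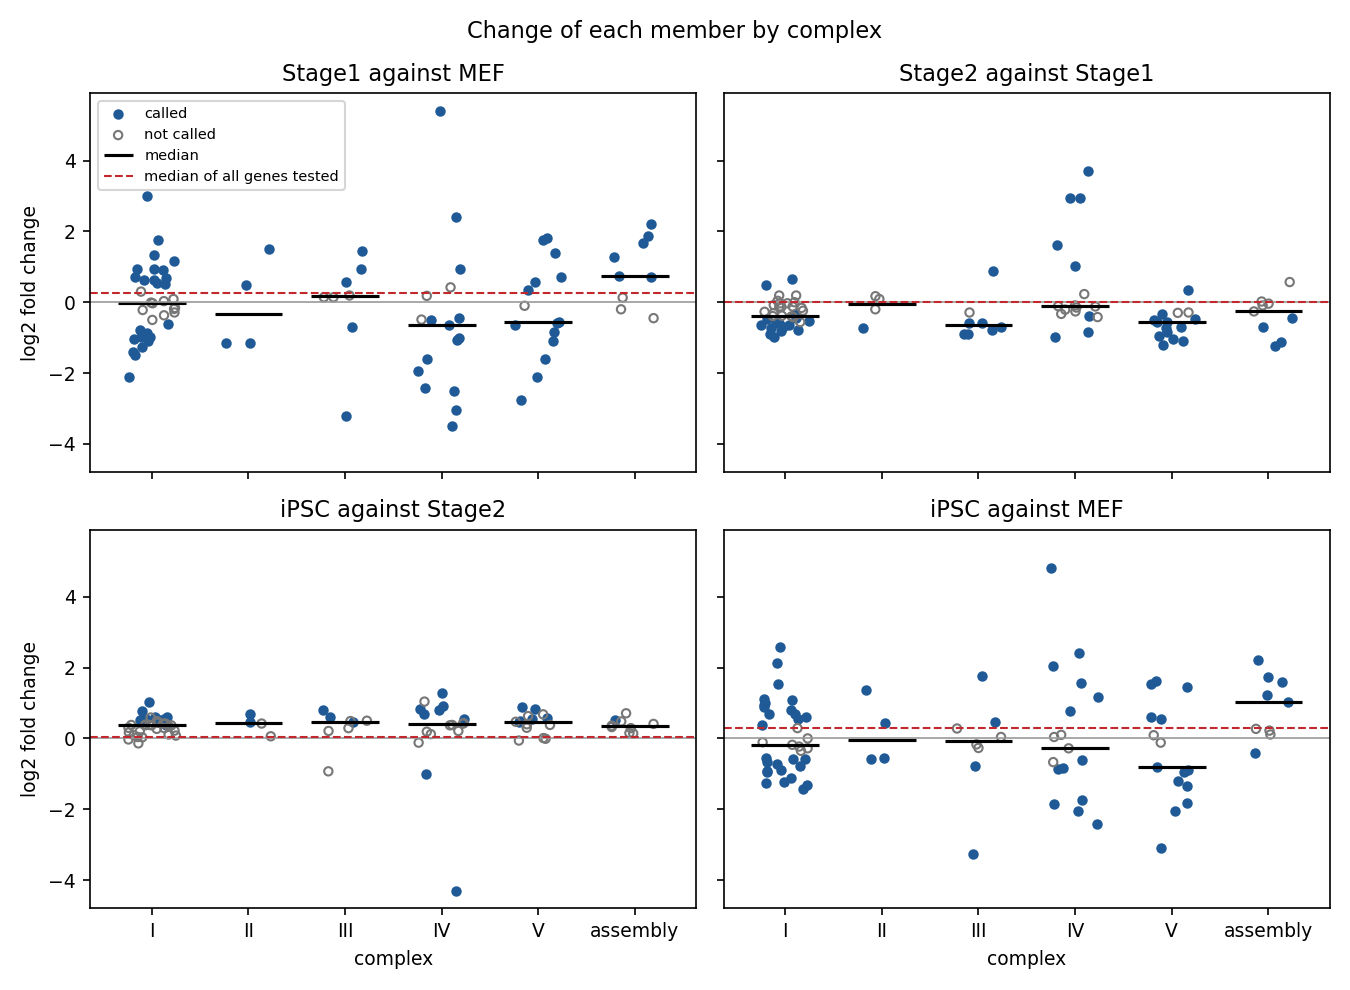
Log2 fold change (y axis) of each tested gene by complex (x axis) in the 4 comparisons. Filled points were called and open points were not, black bars are medians per complex, and the dashed line is the median of all genes tested. Complexes spread on both sides of 0 against MEF, while 71 of 88 genes lie below 0 for Stage2 against Stage1 and 80 of 88 above 0 for iPSC against Stage2 with TMM scaling.

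The summed level of complex IV genes was 3479, 3816 and 2359 CPM in MEF replicates 1, 2 and 3 and 1726, 1884 and 1751 CPM at Stage1, with no overlap. Complex V summed to 3396, 4165 and 3359 CPM in MEF and 4369, 4660 and 4490 CPM at Stage1, higher without overlap although its median gene was lower. Within that sum Atp5a1, of the catalytic head of the synthase, went from a mean of 469 to 1237 CPM. Complex I sums overlapped, at 2690, 3203 and 2110 CPM in MEF against 2856, 2962 and 2859 CPM at Stage1. As CPM of gene totals, without TMM scaling, they did not overlap, at 2408, 2636 and 1841 in MEF and 2870, 2835 and 2765 at Stage1. With 3 libraries a group, an exact permutation test of such a sum cannot go below p = 0.1, so none was run. MEF replicate 3 was the lowest of the MEF libraries in complexes I, III, IV and V.

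**Figure D2:**
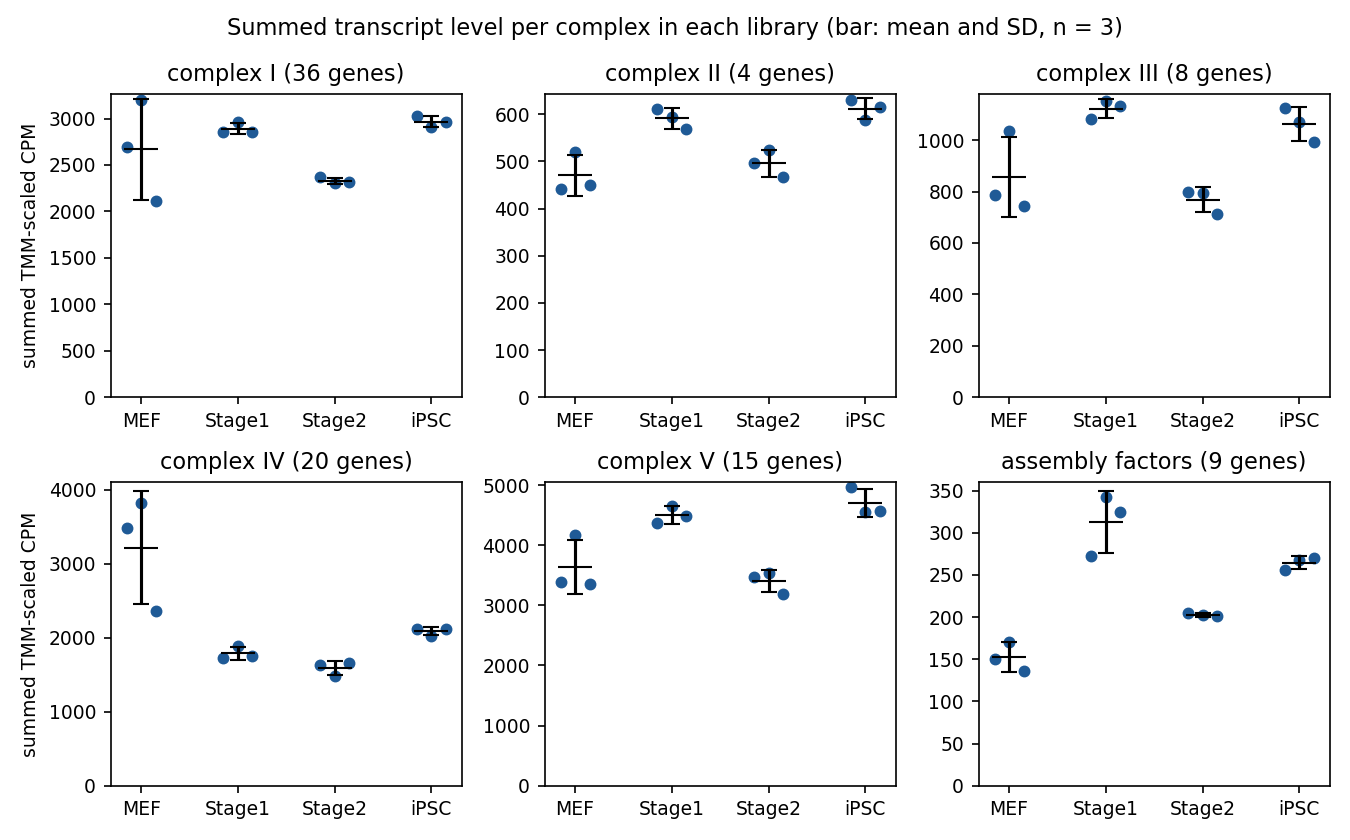
Summed TMM-scaled CPM (y axis) of the genes of each complex in every library (points), with group mean and SD (bars, n = 3), by group (x axis). With this scaling complex IV is highest in MEF, and every complex and the assembly factors are lower at Stage2 than at Stage1 and in iPSC. As CPM of gene totals, complexes II and IV overlap between Stage1 and Stage2.

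In complex I, the 7 nuclear core subunits carry the flavin, the iron-sulphur clusters and the quinone site, and were set apart here after their values were seen. Among these Ndufv1, Ndufv2 and Ndufs1 were higher at Stage1, and Ndufs8 was lower. Ndufv2 was not called in a fit of only the MEF and Stage1 libraries (0.42, adjusted p = 0.108). Ndufv1, which binds NADH (chromosome 19, 4007384 to 4012806, mm10), was at 26.4, 40.8 and 37.3 CPM in MEF and 121, 122 and 114 CPM at Stage1. The groups did not overlap, and the log2 fold change was 1.77 ± 0.154 (adjusted p = 7.63e-09). Ndufs1, the largest subunit of the electron input module, rose by 0.91 ± 0.128. Ndufs8, a carrier of iron-sulphur clusters, went from 56 ± 11 CPM (SD, n = 3) to 21.2 ± 1.85 CPM. Core subunits of the same complex thus moved in opposite directions.

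The accessory subunits surround this core. Of 28 tested, 9 were higher, 10 lower and 9 not called. Ndufa5 (chromosome 6, 24518666 to 24528013) stood out at 17.2, 20.3 and 14.5 CPM in MEF and 138, 143 and 138 CPM at Stage1. Its log2 fold change was 3.01 ± 0.167 (adjusted p = 1.84e-11). Ndufa6 rose by 1.34 ± 0.177. Ndufa7 had the largest fall in the complex, from 330, 352 and 155 CPM to 64.6, 60 and 67.7 CPM, a log2 fold change of -2.12 ± 0.258.

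In complex II, Sdha, the flavoprotein that oxidises succinate (chromosome 13, 74322254 to 74350280), was at 105, 97.9 and 133 CPM in MEF and 324, 325 and 307 CPM at Stage1. Its log2 fold change was 1.51 ± 0.129. Its partner Sdhb, the iron-sulphur subunit, went the other way, from 105, 123 and 105 CPM to 52.1, 52.1 and 46.1 CPM (-1.15 ± 0.131), and so did the membrane anchor Sdhc (-1.14 ± 0.155). The other anchor, Sdhd, rose by 0.48 ± 0.158, and was not called without MEF replicate 1 (0.39, adjusted p = 0.0523). Nor was Sdhd called in a fit of only the MEF and Stage1 libraries (0.39, adjusted p = 0.103). Each direction was without overlap for Sdha, Sdhb and Sdhc.

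In complex III, the core proteins Uqcrc1 and Uqcrc2 were not called, with log2 fold changes of 0.19 ± 0.145 and 0.14 ± 0.143. The Rieske iron-sulphur protein gene Uqcrfs1 rose by 0.93 ± 0.149. Uqcrb, which helps to form the quinone site, was at 150, 135 and 76.9 CPM in MEF and 270, 356 and 358 CPM at Stage1 (1.45 ± 0.191). Uqcrq, a small subunit (chromosome 11, 53427922 to 53430831), fell from 79.4, 116 and 113 CPM to 9.06, 11.1 and 13.1 CPM (-3.22 ± 0.331, adjusted p = 1.21e-07). Within this complex the range thus ran from a gain in Uqcrb to a loss in Uqcrq.

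In complex IV, Cox4i1, the regulatory subunit that binds ATP (chromosome 8, 120668222 to 120674207), was at 1208, 978 and 526 CPM in MEF. At Stage1 it was at 152, 177 and 146 CPM, a log2 fold change of -2.51 ± 0.235 (adjusted p = 2.66e-08). Cox6a1 (chromosome 5, 115345642 to 115348981) fell from 204, 246 and 190 to 26.9, 30 and 21 CPM (-3.04 ± 0.165). Cox8a fell from 278 ± 24.8 to 73 ± 8.24 CPM (SD, n = 3), and Cox6b1, on the side facing cytochrome c, from 444 ± 131 to 146 ± 17.2 CPM. Cox7b was among the 3 that rose, from 165, 277 and 112 CPM to 342, 369 and 357 CPM (0.95 ± 0.222). Cox5b and Cox6c were not called, at 0.42 ± 0.223 for Cox5b.

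In complex V, Atp5a1, the alpha subunit of the head (chromosome 18, 77773729 to 77782869), rose from 409, 526 and 473 to 1253, 1249 and 1209 CPM (1.40 ± 0.128). Atp5b, the beta subunit, rose by 0.35 ± 0.127, and was not called without MEF replicate 1 (0.30, adjusted p = 0.0603). Nor was Atp5b called in a fit of only the MEF and Stage1 libraries (0.28, adjusted p = 0.144). Atp5k, a small subunit of the membrane part (1.81 ± 0.226), and Atp5j, of the peripheral stalk (1.76 ± 0.18), also rose. Atp5j shares exon bases with Gabpa on the opposite strand. The central stalk subunits Atp5d and Atp5e fell by 1.61 and by 1.10 on the log2 scale. Both central stalk genes named thus fell. Peripheral stalk genes went both ways, with Atp5j higher and Atp5o lower (-0.83). Both head genes named rose, with the limits given for Atp5b.

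Atp5g1, Atp5g2 and Atp5g3 encode the same mature c subunit of the rotor ring with different import signals. Atp5g1 (chromosome 11, 96068852 to 96075670) fell from 97.6, 155 and 129 CPM to 21.6, 19 and 15.3 CPM (-2.77 ± 0.232). Atp5g2 fell from 392, 340 and 349 CPM in the 3 libraries to 85.9, 83.4 and 80 CPM (-2.12 ± 0.122), and Atp5g3 had a log2 fold change of -0.60 ± 0.172. The 3 genes together summed to 581 ± 31.3 CPM in MEF, 164 ± 9.65 at Stage1, 153 ± 9.42 at Stage2 and 165 ± 6.79 in iPSC (SD, n = 3). By counts per kilobase, Atp5g3 held 16.4% ± 4.06 of the family in MEF and 36.7% ± 1.28 at Stage1, then 21.8% ± 3.32 and 27.3% ± 1.26. Atp5g2 held the largest share in every group, between 60.3% and 77.6%.

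Among assembly factors of complex I, Ndufaf6 rose from 6.39, 6.55 and 2.53 CPM to 24.4, 24.1 and 21.8 CPM (2.21 ± 0.27). Ndufaf2 rose from 26.4, 22.5 and 18.8 to 61, 96.7 and 87.9 CPM (1.87 ± 0.188), although it shares exon bases with an antisense transcript. Ndufaf5 (1.29), Ndufaf7 (0.73), Ndufaf4 (0.70) and Atp5sl (1.67) rose as well. Ndufaf1, Ndufaf3 and Atp5s were not called.

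Split at 1000 bases, transcript length went with direction within these genes. The Spearman correlation of length with log2 fold change was 0.21 among them and 0.00 among all genes tested. Of the 54 with a transcript of up to 1000 bases, 13 were higher at Stage1 and 28 lower (median -0.51), and of the 34 longer ones 20 were higher and 6 lower (median 0.57). Among all genes the 2 length classes had medians of 0.23 and 0.27, so that split did not appear there. The fibroblast markers, the share of reads outside genes and the sorting all differed between MEF and the other groups, and their part in these changes was not tested. In bulk RNA, fewer cells with a transcript and less of it per cell cannot be told apart.

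**Figure D3:**
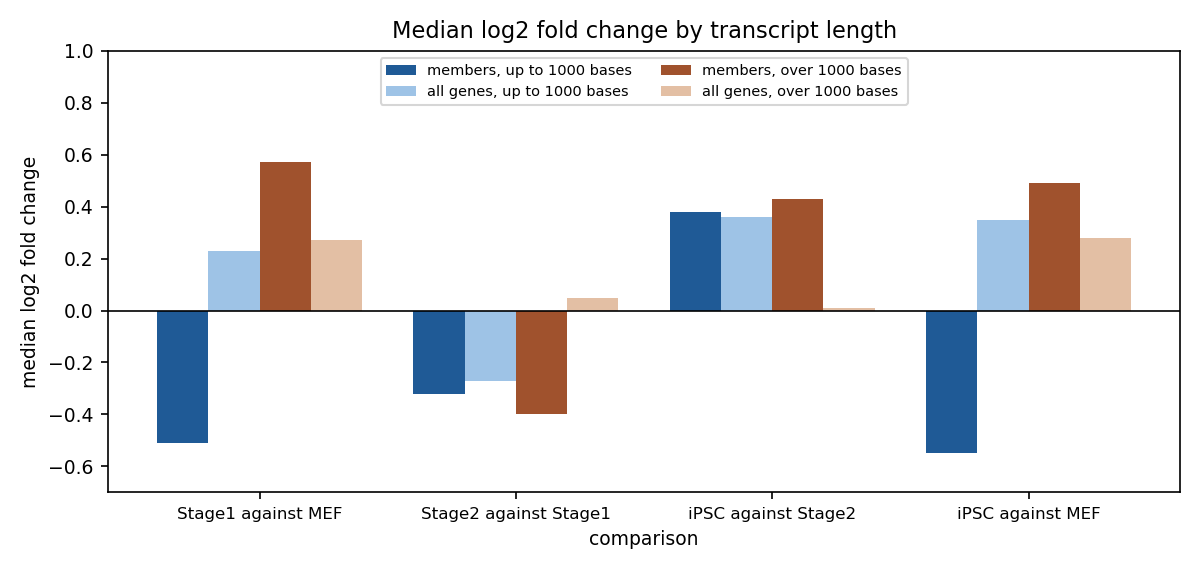
Median log2 fold change (y axis) of the respiratory genes (dark bars) and of all genes tested (light bars) with transcripts of up to 1000 bases (blue) and longer (brown), by comparison (x axis), with TMM scaling. Against MEF the short and long respiratory genes part, and for iPSC against Stage2 the short genes of both sets have medians of 0.38 and 0.36.

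Stage2 against Stage1 asked what changed over 4 further days in sorted cells. More respiratory genes fell than rose: 40 of 88 fell, 9 rose and 39 were not called, where 40.4% of all genes tested were called, 19.8% lower and 20.6% higher. The shares among these genes were 45.5% and 10.2%. Their median log2 fold change was -0.36 beside 0.02 for all genes, and 71 of the 88 lay below 0. Library totals gave 26 lower and 11 higher, where 11.4% and 27.3% of all genes were called, with a median of -0.15 beside 0.22. Without Stage1 replicate 2 or 3, or Stage2 replicate 1, the number of genes called higher was 5, 4 and 5.

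In complex V 12 of 15 genes fell and 1 rose (median -0.57), and in complex III 6 of 8 fell and 1 rose (median -0.65). In complex I 14 of 35 fell and 2 rose (median -0.38). Of complex II 1 of 4 fell, and of complex IV 3 of 17 fell and 5 rose. The medians of complexes II and IV, -0.05 and -0.12, turned to 0.15 and 0.08 with library totals, and that of complex II to 0.01 with RLE, while those of complexes I, III and V stayed below 0.

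Atp5l, a subunit of the membrane part (chromosome 9, 44912557 to 44920742), fell from 79.3, 100 and 94.3 CPM to 38.5, 42.6 and 36.3 CPM (-1.22 ± 0.197, adjusted p = 0.000112). Atp5d fell from 24.3, 24.1 and 18.4 to 10.5, 11.1 and 9.57 CPM (-1.10 ± 0.233), and Atp5k from 160, 229 and 183 to 104, 103 and 73 CPM (-1.03 ± 0.22). Each of the 3 was without overlap between groups. Atp5o, which couples head and stator, fell by 0.85 on the log2 scale. Atp5g2 was the only complex V gene called higher (0.35 ± 0.119), and was not called without Stage1 replicate 2 or 3 or Stage2 replicate 1 or 3 (adjusted p = 0.0771 to 0.115).

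In complex I the core subunits Ndufs1 (-0.79 ± 0.128), Ndufs8 (-0.69 ± 0.18), Ndufv1 (-0.64 ± 0.148) and Ndufs3 (-0.47 ± 0.168) fell. Ndufs3 was not called with library totals (-0.27, adjusted p = 0.191), with no filter (0.0551) or without Stage1 replicate 1 or 2 or Stage2 replicate 2 or 3 (0.0596 to 0.133). Ndufs1 (chromosome 1, 63143596 to 63176833) was at 262, 276 and 264 CPM at Stage1 and 145, 158 and 160 CPM at Stage2. Among accessory subunits Ndufc2 went from 59.5 ± 6.08 to 29.8 ± 1.44 CPM (SD, n = 3) and Ndufa12 from 146 ± 12.8 to 78 ± 2.48 CPM. Ndufa6 and Ndufa7 rose by 0.49 and 0.66. Ndufa6 was not called without Stage1 replicate 1 or 3 or Stage2 replicate 2 or 3 (adjusted p = 0.0542 to 0.182). Ndufa7 was not called without any single Stage1 or Stage2 library (adjusted p = 0.0546 to 0.15), nor without iPSC replicate 1 (0.0543). Nor was Ndufa7 called with no filter (0.1) or with the replicate block (0.0617). The assembly factors Ndufaf4 (-1.24 ± 0.168) and Ndufaf2 (-1.12 ± 0.182) had the largest falls beside Atp5l.

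In complex III, Uqcr10 (-0.90), Uqcr11 (-0.89), Uqcrh (-0.78), Uqcrfs1 (-0.70), Uqcrc2 (-0.60) and Uqcrc1 (-0.59) fell. Uqcrc1 was at 149, 144 and 144 CPM at Stage1 and 100, 98.2 and 91.3 CPM at Stage2. Uqcrq was called higher (0.87 ± 0.321, adjusted p = 0.039), but its Stage2 libraries were at 35.2, 12.4 and 14 CPM. Without Stage2 replicate 1 its log2 fold change was 0.24 (adjusted p = 0.463). It was also not called without any single Stage1 library or MEF replicate 3 (adjusted p = 0.0512 to 0.133). The same held with no filter (0.0872), with the replicate block (0.0581) and in a fit of only the Stage1 and Stage2 libraries (0.116).

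The 5 complex IV genes that rose were isoforms of restricted expression. Cox7b2, known from testis (chromosome 5, 71442824 to 71548205), had 0 counts in MEF. It was at 0.277, 0.179 and 0.758 CPM at Stage1, at 5.47, 5.85 and 4.79 CPM at Stage2 and at 0, 0.278 and 0.51 CPM in iPSC. All 3 Stage2 libraries stood above the other 9. Its log2 fold changes were 3.71 ± 0.642 for Stage2 against Stage1 (adjusted p = 0.000326) and -4.30 ± 0.678 for iPSC against Stage2 (adjusted p = 0.000883). Against MEF, with the floor of 3 counts over the 3 libraries, it was at least 5.26-fold higher at Stage1 and at least 3.46-fold higher in iPSC.

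Cox6b2, also known from testis (chromosome 7, 4751792 to 4753094), was at 2.76, 6.82 and 3.74 CPM in MEF and 35.6, 18.1 and 18.5 CPM at Stage1. It was at 71.2, 49 and 27 CPM at Stage2 and 25.1, 24.7 and 23.3 CPM in iPSC. MEF lay below all other libraries, with a log2 fold change of 2.40 ± 0.372 at Stage1, whereas Stage1 and Stage2 overlapped. Its rise at Stage2 (1.02 ± 0.333, adjusted p = 0.0225) and fall in iPSC (-1.01 ± 0.333, adjusted p = 0.0463) came down to 0.64 (adjusted p = 0.154) and -0.62 (adjusted p = 0.262) without Stage2 replicate 1. The rise was also not called without MEF replicate 3, Stage1 replicate 2 or 3, or Stage2 replicate 2 (adjusted p = 0.0517 to 0.105). Nor was the rise called with no filter (0.0586) or in a fit of only the 2 groups compared (0.117). The fall was also not called without MEF replicate 3, Stage1 replicate 2 or 3, Stage2 replicate 2, or any single iPSC library (adjusted p = 0.0537 to 0.129). Nor was the fall called with no filter (0.118) or in a fit of only the 2 groups compared (0.0768). By counts per kilobase Cox6b2 held 1.15% ± 0.484 of the Cox6b pair in MEF and 15.5% ± 5.91 at Stage1. It held 41.2% ± 10.5 at Stage2 and 17.1% ± 0.902 in iPSC (SD, n = 3).

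The germ cell markers Ddx4, Dazl and Prm1 together summed to 0.267 to 0.376 CPM in MEF, 2.21 to 3.31 at Stage1, 39.2 to 44.4 at Stage2 and 65.8 to 79.4 CPM in iPSC. Prm1, the protamine of sperm, was at 0 in MEF, Stage2 and iPSC. From Stage2 to iPSC only Ddx4 rose, from 20.4, 20 and 17.5 CPM to 47.5, 62.2 and 51.5 CPM. Dazl was at 20.6, 24.4 and 21.7 CPM at Stage2 and 18.3, 17.2 and 19.5 CPM in iPSC. The part of germ cell transcription in the Cox7b2 and Cox6b2 values was not tested.

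Ndufa4l2, known to be induced by low oxygen (chromosome 10, 127514967 to 127517154), was at 24.4, 43.9 and 17.7 CPM in MEF and 4.56, 1.34 and 1.52 CPM at Stage1. It was at 18.7, 20.3 and 19.9 CPM at Stage2 and 17.1, 15.8 and 21.3 CPM in iPSC. Stage1 alone lay apart, with log2 fold changes of -3.49 ± 0.393 against MEF and 2.94 ± 0.391 for Stage2 against Stage1 (adjusted p = 3.04e-07 and 1.96e-05). Cox4i2, the isoform of Cox4i1 known from lung and from low oxygen, was likewise lowest at Stage1, at very low levels, with 32, 5, 44 and 85 counts in MEF, Stage1, Stage2 and iPSC. Its Stage2 libraries were at 0.977, 1.06 and 1.23 CPM and its Stage1 libraries at 0.138, 0.179 and 0.0842 CPM (2.95 ± 0.846, adjusted p = 0.0103). In MEF replicate 1 it had no count, and its fall at Stage1 was not called without MEF replicate 2 (-1.54, adjusted p = 0.141) or Stage1 replicate 3 (-2.18, adjusted p = 0.0598). It held 1.31% of the Cox4i pair at Stage2 by counts per kilobase, so Cox4i1 made up nearly all of it.

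Cox7a1, the heart and muscle isoform (chromosome 7, 30184144 to 30186078), was at 3.13, 4.01 and 1.87 CPM in MEF, 2.77, 1.43 and 2.1 at Stage1, 7.43, 7.12 and 5.3 at Stage2 and 12.8, 11.4 and 13.1 CPM in iPSC. MEF and Stage1 overlapped, and Stage2 and iPSC followed above them without overlap. It rose by 1.63 ± 0.326 at Stage2. The muscle markers Myh4, Ckm and Actn2 were at 0 in MEF and summed to 2.77 to 2.86 CPM at Stage1, 0.987 to 2.54 at Stage2 and 1.85 to 3.15 CPM in iPSC. Its share of the Cox7a family, with Cox7a2 and Cox7a2l, was 1.79% ± 0.501 in MEF, 2.19% ± 0.666 at Stage1, 8.17% ± 1.56 at Stage2 and 9.58% ± 0.459 in iPSC.

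**Figure D4:**
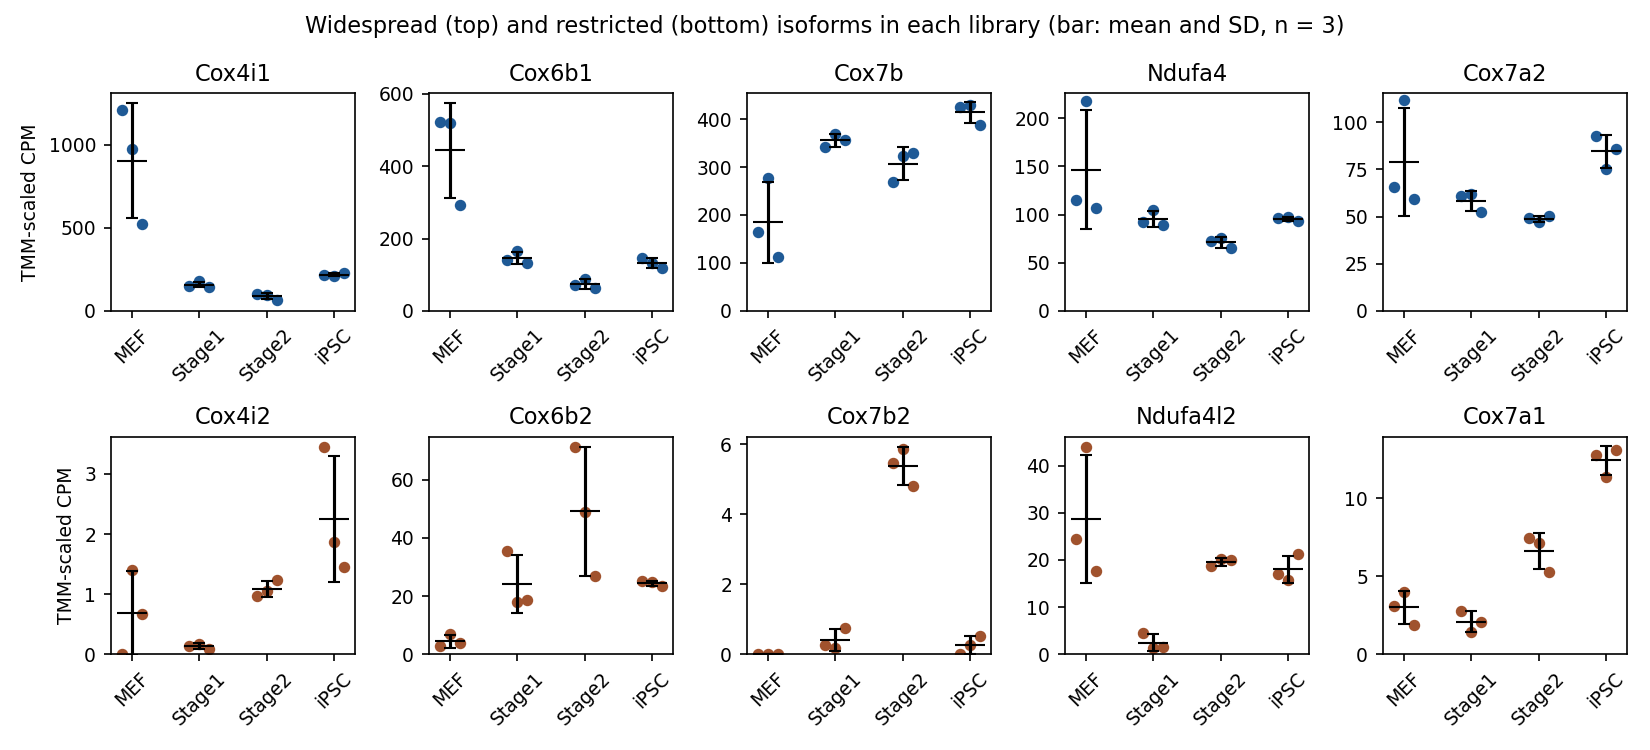
TMM-scaled CPM (y axis, own scale per gene) of 5 widespread isoforms (top) and of their restricted relatives (bottom) in each library (points), with group mean and SD (bars, n = 3, lower end cut at 0), by group (x axis). Cox7b2 peaks at Stage2 between 4.79 and 5.85 CPM, and Ndufa4l2 is lowest at Stage1 between 1.34 and 4.56 CPM.

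IPSC against Stage2 asked what separates established lines from Stage2 cells. Of 88 genes 28 were higher, 2 lower and 58 not called, where 18.1% of all genes tested were called, 9.21% higher and 8.87% lower. The shares among these genes were 31.8% and 2.27%. Their median was 0.40 beside 0.04 for all genes, and 80 of 88 lay above 0. This comparison shares the Stage2 libraries with the last, so its opposite direction is no separate support. The medians of all 5 complexes lay between 0.37 and 0.47 with TMM, and between 0.27 and 0.37 with library totals.

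The number of calls was less firm than the direction. Library totals gave 16 higher and 3 lower, where 5.97% and 11.6% of all genes were called, and a fit of only the 6 libraries compared gave 51 and 1. Without MEF replicate 3, which enters through the shared spread, 45 were higher. Without Stage2 replicates 1, 2 and 3 the counts were 18, 18 and 14, and without iPSC replicates 1, 2 and 3 they were 12, 15 and 15.

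In complex IV 6 of 17 rose, led by Cox4i1, from 103, 94.9 and 68.1 CPM to 215, 210 and 229 CPM (1.29 ± 0.228, adjusted p = 0.00141). Cox6b1 (0.83 ± 0.195), Cox7a2 (0.79 ± 0.19) and Cox6a1 (0.70 ± 0.158) rose too. Cox7a1 rose by 0.91 ± 0.297, but was not called without any single Stage2 or iPSC library (adjusted p = 0.0771 to 0.148). Nor was Cox7a1 called without Stage1 replicate 3 (0.0502), with library totals (0.0655) or without structural RNA genes (0.05). In complex V 6 of 15 rose, among them Atp5o, from 83.1, 96.5 and 84.7 to 173, 163 and 150 CPM (0.88 ± 0.147), Atp5k (0.84 ± 0.219) and Atp5b (0.54 ± 0.127). All 3 Atp5o libraries of iPSC stood above those of Stage2. Atp5k was not called without Stage2 replicate 3 or iPSC replicate 1 or 2 (adjusted p = 0.0608 to 0.0749).

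In complex I 10 of 35 rose and 0 fell. Ndufa2 (chromosome 18, 36742332 to 36744557) went from 16.6, 17.3 and 15.2 to 38.5, 31.9 and 29.3 CPM (1.02 ± 0.211). The core subunits Ndufs8 (0.78 ± 0.18), Ndufs1 (0.56 ± 0.128) and Ndufs3 (0.56 ± 0.168) rose as well. Ndufs3 was not called with library totals (adjusted p = 0.0543) or without Stage2 replicate 2 or 3 or iPSC replicate 1 or 2 (0.0611 to 0.118). In complex II Sdhd (0.70 ± 0.158) and Sdhb (0.47 ± 0.13) rose, and in complex III Uqcr11 (0.81), Uqcrb (0.60) and Uqcrc1 (0.45). Uqcrb and Uqcrc1 were not called with library totals (adjusted p = 0.0691 and 0.116) or without any single Stage2 or iPSC library (0.0638 to 0.137). Uqcrb was also not called with RLE (0.0621). Uqcrc1 was also not called with the replicate block (0.0603), without Stage1 replicate 2 (0.0613), with no filter (0.0504) or without structural RNA genes (0.0591). Sdhb was not called with library totals (0.0566) or without Stage2 replicate 3 or iPSC replicate 1 or 3 (0.0599 to 0.0707), and Uqcr11 not without Stage2 replicate 3 (0.0568). Only Cox7b2 and Cox6b2 were called lower.

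Length and read composition moved with both of these steps. For Stage2 against Stage1, all 1346 genes with transcripts of up to 1000 bases had a median of -0.27, and the 13307 longer ones 0.05. The 54 short respiratory genes had -0.32 and the 34 long ones -0.40. For iPSC against Stage2 the medians were 0.36 for all short genes and 0.01 for all long ones, and 0.38 and 0.43 for the respiratory genes. The short respiratory genes thus lay close to other short genes, while the long ones lay away from other long genes in both steps. The share of reads outside genes was highest at Stage2, and its part was not tested.

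IPSC against MEF compared the end points. Of 88 genes 34 were higher, 34 lower and 20 not called, where 80.8% of all genes tested were called, 44.9% higher and 35.8% lower. The shares among these genes were both 38.6%, and the median was -0.06 beside 0.29 (0.23 beside 0.57 with library totals). This comparison shares libraries with those above. In complex V 8 of 15 were lower and 5 higher, with a median of -0.80 (-0.51 with library totals). In complex IV 7 of 17 were lower and 6 higher, and its median of -0.28 turned to 0.01 with library totals. The summed level of complex IV was 2119, 2022 and 2117 CPM in iPSC with TMM scaling, below all 3 MEF libraries. As CPM of gene totals it was 2243, 2069 and 2264 in iPSC, above the 2058 of MEF replicate 3.

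Uqcrq (-3.27 ± 0.331), Atp5g1 (-3.10 ± 0.236), Cox6a1 (-2.43 ± 0.16), Cox4i1 (-2.05 ± 0.231) and Atp5d (-2.04 ± 0.229) had the lowest values in iPSC relative to MEF. Ndufa5 (2.58 ± 0.165), Cox6b2 (2.41 ± 0.372), Ndufaf6 (2.22 ± 0.27) and Ndufa6 (2.13 ± 0.18) were the most increased beside Cox7b2. Ndufa6 was at 23.3, 36.4 and 26.5 CPM in MEF and 113, 123 and 142 CPM in iPSC. Of the 7 core subunits of complex I, 5 were higher in iPSC and Ndufs8 was lower. Cox5b, not called at Stage1, was called higher in iPSC (0.77 ± 0.223).

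By group means, 43 of the 88 tested genes were lowest at Stage2 and 31 in MEF, 12 at Stage1 and 2 in iPSC. The highest mean was in MEF for 40, in iPSC for 25, at Stage1 for 21 and at Stage2 for 2. Over the 3 successive steps 9 genes were called in none, among them Cox6c, Ndufb9, Ndufs6 and Ndufs7. Another 12 rose at Stage1 with no later call, such as Sdha, Ndufv2 and Cox7b, and 11 fell at Stage1 with no later call, such as Cox8a, Sdhc and Ndufa11. The pattern of a fall at Stage1, a fall at Stage2 and a rise in iPSC was found in 8, including Cox4i1, Cox6b1, Atp5o and Ndufs8. In 6 a rise at Stage1 was followed by a fall and a rise, including Ndufs1 and Sdhd. Such counts of group means and patterns were not made over all genes tested, so nothing particular to respiratory genes is read from them.

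Other genes serve these complexes but lie outside the naming rule. Their counts stand beside the shares of all genes given above, 80.4%, 40.4% and 18.1% called over the 3 successive steps. Of 24 tested assembly factors of complexes II, IV and V, 12 were higher and 8 lower at Stage1 than in MEF. At Stage2 13 were lower and 0 higher than at Stage1, and in iPSC 2 were higher and 0 lower than at Stage2. Lrpprc, which stabilises mitochondrial messenger RNA, was at 52.6 CPM in MEF, 422 at Stage1, 211 at Stage2 and 243 CPM in iPSC, called at the first and second step. Tmem70, needed for ATP synthase assembly, fell in both of these steps, with -1.73 and -1.31. Of 6 complex I assembly factors outside the rule, 3 were higher and 1 lower at Stage1, and 1 was lower at Stage2.

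Of 6 tested electron carriers and complex III genes outside the rule, 3 were higher and 1 lower at Stage1 than in MEF. Of all genes tested, 44.2% and 36.1% were called there. The lower one was Cyc1, a complex III gene (-0.56). Cytochrome c, which carries electrons from complex III to complex IV, has a somatic and a testis form. Cycs rose at Stage1 from a mean of 146 to 365 CPM (1.33) and fell to 182 CPM at Stage2. Cyct, the testis form, was at 0 counts in MEF, and its Stage1 level was at least 14-fold higher. Its means were 1.03 CPM at Stage1, 20.9 at Stage2 and 34 CPM in iPSC, with a log2 fold change of 4.29 for Stage2 against Stage1. The part of germ cell transcription, whose markers are given above, was not tested here either.

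Of 16 tested regulators of respiratory genes and of mitochondrial DNA, 10 were higher and 1 lower at Stage1 than in MEF, where 44.2% and 36.1% of all genes were called. At Stage2 5 were lower and 0 higher than at Stage1, where 19.8% and 20.6% of all genes were called. Tfam, which packages and transcribes mitochondrial DNA, was at 28 CPM in MEF, 176 at Stage1, 111 at Stage2 and 133 CPM in iPSC (2.65, then -0.67). Nrf1 rose by 1.71 and Gabpa by 1.58 at Stage1. Esrra was the gene called lower (-1.13), while the pluripotency factor Esrrb rose from 0.394 to 343 CPM. Ppargc1b was at 0 counts in MEF, and its Stage1 level was at least 42.1-fold higher.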

How the data were processed

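RNA from 12 libraries was extracted with the miRNeasy Mini Kit, per the labels' protocols. The deposited files give, for each gene symbol, a raw count of reads that was not normalised. The submitters' processing notes name TopHat2 2.0.9, Bowtie2 2.2.6, SAMtools 0.1.19, HTSeq 0.5.4p3 and DESeq2 1.12.4, with the build mm10. The sources used here give neither the annotation version nor the strand setting.

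HTSeq summary lines stayed out of library sizes and tests. All 4 groups entered a single robust quasi-likelihood fit of edgeR 4.0.16 (R 4.3.3; limma 3.58.1; statmod 1.5.0), after filterByExpr and TMM scaling. Each SE was obtained by dividing the absolute log2 fold change by the root of F. Transcript lengths are medians of GENCODE vM21 basic transcripts, and gene positions are its mm10 spans. Promoter windows are RefSeq, GRCm38.p6. The procedure was tested on simulated data. Values of some single genes are not reported here.

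The members, lists and naming rule were chosen with earlier results of these data known. The rule lets any member be named, and names up to 5 called members with the largest change per comparison and direction. For further lists it set up to 4 by largest change, and the text did not keep to this. More than 4 regulators are named. Genes with larger called changes were passed over in the lists, such as Polg2 (4.41) and Higd2a (-1.93) for Stage1 against MEF. Genes named from the further lists are thus not the strongest by a fixed rule. Other settings were RLE scaling, library totals, no filter, DESeq2 1.42.0, fits of the groups compared, a minimum of 1 CPM in 3 libraries, the replicate number as a block, no structural RNA genes and leaving out each library.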

Additional observations from a re-analysis of the deposited data

How the results depend on the processing

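No called gene reversed its direction under any of the 20 alternatives. Of 67, 49, 30 and 68 genes called for Stage1 against MEF, Stage2 against Stage1, iPSC against Stage2 and iPSC against MEF, 56, 30, 11 and 54 were called under all of them. Library totals gave 26 genes lower in the Stage2 to Stage1 comparison and 16 higher for iPSC against Stage2, and fits of the groups compared gave 51 higher and 1 lower for the latter. Without a filter 1 was lower for iPSC against Stage2. Leaving out 1 library gave 4 to 10 higher and 28 to 46 lower for Stage2 against Stage1, while for iPSC against Stage2 it gave 12 to 45 higher and 1 to 3 lower. For Stage1 against MEF it gave 30 to 38 higher and 31 to 39 lower, and for iPSC against MEF 31 to 36 and 30 to 38. The cause was not tested, other than that fewer libraries enter each fit.

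Replicate numbers were not entered as pairs in the main fit. In deviations from group means, 3 of 18 same-numbered pairs correlated above 0.1 (range -0.0675 to 0.197), all 3 with an iPSC library. Of 36 other pairs 0 did (range -0.139 to 0.0829). Same-numbered pairs among Stage1, Stage2 and iPSC all correlated above 0, from 0.0107 to 0.197, and those with MEF from -0.0675 to 0.05. Structural RNA shares also fell from replicate 1 to 3 in each group but MEF, such as from 1.48% to 0.954% at Stage1. Whether the numbers mark a shared batch was not tested. With the replicate block, 33 and 33 genes were higher and lower for Stage1 against MEF, 34 and 34 for iPSC against MEF, 28 and 2 for iPSC against Stage2, and 7 and 38 in the step from Stage1 to Stage2. Genes of few counts, such as Cox4i2 and Cox7b2, are limited by depth.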

Other observations

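Of 13 tested genes of the tricarboxylic acid cycle, which feeds electrons to complexes I and II, 9 were higher and 2 lower at Stage1 than in MEF. At Stage2 9 were lower and 0 higher than at Stage1, and in iPSC 3 were higher and 0 lower than at Stage2. Of all genes tested 80.4%, 40.4% and 18.1% were called in these 3 steps. Suclg2 had a mean of 45.6 CPM in MEF and 201 CPM at Stage1 (log2 fold change 2.14). Mdh2 went the other way, from 150 to 71.9 CPM (-1.07), and was at 48.3 CPM in iPSC. Ogdh (-0.70) and Dld (-0.67) had the largest falls at Stage2.

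Of 7 tested carriers and inhibitors, 2 were higher and 3 lower at Stage1 than in MEF, where 44.2% and 36.1% of all genes were called. Slc25a4, a carrier that exchanges ADP and ATP across the inner membrane, had means of 452, 624, 148 and 272 CPM in MEF, Stage1, Stage2 and iPSC. It was called in all 3 successive steps, with log2 fold changes of 0.47, -2.08 and 0.88. Slc25a5, its relative, rose at Stage1 (1.00) and was not called in the later steps. Atpif1, which blocks ATP hydrolysis by complex V, fell at Stage1 (-0.44) and rose in iPSC against Stage2 (0.62). Ucp2 rose at Stage2 (0.55) and fell in iPSC (-0.76).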
